A study of Mus musculus with 6 samples.

Results

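Macrophages take up lipoprotein cholesterol and fatty acids, store them as esters in lipid droplets and hand cholesterol back to HDL and apolipoproteins. Nuclear receptors of the LXR family, which sense oxysterols, and of the PPAR family, which sense fatty acids, switch on much of that machinery as partners of RXR. The 10 genes described here belong to it: Nr1h3, which encodes LXR alpha, and Pparg, which encodes PPAR gamma, the LXR targets Abca1, Abcg1, Mylip and Apoe, and the PPAR targets Cd36, Fabp4, Lpl and Plin2. They were chosen by name, as the non-control probes of the array whose gene name is one of the 10. This gave 13 probes on 31 spots, out of 55681 probes on 59305 spots. All 13 probes were well above background on all 6 arrays, none was saturated, and all 10 genes were among the 19575 genes or other features that passed the filter on dim probes and were tested.

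The cells were bone marrow-derived macrophages of C57BL/6 mice, grown for 7 days in serum-containing medium with L929-conditioned medium, which supplies the macrophage growth factor M-CSF. In the ADP group, 3 samples were exposed for 6 h to 100 µM ADP, a nucleotide that leaves damaged cells and is sensed by P2Y receptors. The control group held 3 samples taken after a 6 h control treatment, whose content the labels do not give. The submitters describe independent experiments with different donors, without saying whether a donor gave both a control and an ADP sample or whether animals were pooled. The question put to these samples was which transcripts differ after ADP.

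Each sample was read on 1 one-colour array, and 50.3% to 51.9% of the spots were well above background. Levels are log2 signals relative to the array's 75th percentile, which lay between 455 and 549, and differences are ADP minus control on that log2 scale. Levels are not compared between genes, since they also depend on the probe. The arrays lay on 2 slides, with controls 1 and 2 and ADP 1 on slide 1, and control 3 and ADP 2 and 3 on slide 2. The component that carried most of the variance over all features, 44.9%, separated the slides, so differences are also given within each slide and with the slide as a block. All 8 macrophage markers listed were well above background on all 6 arrays, and their summed linear signal was 974 to 1331 times the 75th percentile in controls and 1177 to 1605 times with ADP. The number of arrays, 3 a group, limits the precision, and a permutation of 3 against 3 arrays cannot go below p = 0.1.

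LXR with RXR binds paired repeats spaced by 4 bases (DR4), and PPAR with RXR binds the same repeats spaced by 1 base (DR1). RefSeq promoters on build GRCm38.p6, from 250 bases before a start site to 50 after it, were matched by symbol for 7 of the 10 genes, in 12 windows; Abcg1, Fabp4 and Lpl were not matched. They were searched on both strands for the letters AGGTCA and AGGTCA again after 4 free bases (DR4) or 1 free base (DR1), allowing up to 2 mismatches over the 12 fixed letters. The motifs share their repeat, so with mismatches 1 stretch may match both. DR1 matched in Cd36 at positions -63 to -51 from the start and in Plin2 at -225 to -213. A DR1 match of that kind stood in 4.4% of the 27025 genes of the promoter table. DR4 with up to 2 mismatches, held by 3.47% of all genes, was in none of the 12 windows. With up to 3 mismatches, a limit added after the data were seen, DR4 matched in Abca1 at -67 to -52 and in Pparg across the start, and it did so in 24.5% of all genes. At that limit DR1 also matched in Apoe and at further places in Cd36 and Plin2, and it did so in 27.3% of all genes. Of the sequences with such letters, those of the cholesterol transporter Abca1, the scavenger receptor Cd36 and the droplet protein Plin2 are shown. They are the 250 bases before the start, 5′ to 3′ on the gene's strand. Capitals mark the match with the fewest mismatches, which reads along the motif on the opposite strand.
Abca1 promoter, chr4:53159896-53160145, minus strand: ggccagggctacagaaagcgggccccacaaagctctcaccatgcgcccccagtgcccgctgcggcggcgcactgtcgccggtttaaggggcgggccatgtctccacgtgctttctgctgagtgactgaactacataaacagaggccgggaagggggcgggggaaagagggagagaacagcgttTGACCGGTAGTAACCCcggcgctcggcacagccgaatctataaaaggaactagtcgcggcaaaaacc
Cd36 promoter, chr5:17835897-17836146, minus strand: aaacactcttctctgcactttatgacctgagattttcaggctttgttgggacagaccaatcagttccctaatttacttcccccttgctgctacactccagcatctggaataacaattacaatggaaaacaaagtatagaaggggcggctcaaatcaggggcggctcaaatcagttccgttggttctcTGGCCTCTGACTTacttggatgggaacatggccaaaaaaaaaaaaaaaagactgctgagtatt
Plin2 promoter, chr4:86670060-86670309, minus strand: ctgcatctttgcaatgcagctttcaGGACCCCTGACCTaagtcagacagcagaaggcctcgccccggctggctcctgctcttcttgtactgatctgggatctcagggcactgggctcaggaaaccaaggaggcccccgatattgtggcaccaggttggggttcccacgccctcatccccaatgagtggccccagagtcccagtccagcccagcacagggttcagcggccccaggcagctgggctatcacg
A match is a run of letters and not a measured binding site, and the arrays measured RNA alone.

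The signals come from 60-base probes whose positions the files give on mouse build mm9; exon and UTR annotation of that build was not used here. The 3 probes shown are the 2nd probe of Lpl, the gene with the largest difference of the 10, the Apoe probe, which was spotted 10 times on each array, and the dim 2nd probe of Mylip. No base is singled out in them.
Lpl probe A_52_P257812, chr8:71425050-71425109: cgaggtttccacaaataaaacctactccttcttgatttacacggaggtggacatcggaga
Apoe probe A_51_P171999, chr7:20281732-20281791: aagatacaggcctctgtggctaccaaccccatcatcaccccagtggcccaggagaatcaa
Mylip probe A_52_P248343, chr13:45503808-45503867: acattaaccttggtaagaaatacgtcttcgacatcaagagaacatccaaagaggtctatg

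With ADP, Lpl, Abcg1, Pparg and Fabp4 read below every control array, by 0.37 to 0.66 on the log2 scale, and none of the 10 genes read above every control. Groups that did not overlap, with ADP below, were thus found for 4 of the 10 genes and for 9.72% of all features, and with ADP above for 0 of the 10 and 9.67% of all features. In the limma fit without a block, 0 of the 10 genes and 0% of all 19575 features passed an adjusted p of 0.05 (Benjamini-Hochberg). At an unadjusted p under 0.05, 4 of the 10 genes were lower with ADP, beside 6.18% of all features, and 0 were higher, beside 6.55%. The median difference of the 10 genes was -0.15, beside 0.00 over all features, and it was -0.14 within slide 1 and -0.36 within slide 2. Without control 3 the median was -0.035 and 2 of the 10 genes had an unadjusted p under 0.05 and read lower (Abcg1 and Pparg), beside 5.41% of all features. On the unscaled value table none had, beside 1.67% of all features lower. The 10 genes were chosen with earlier results of these data known, so these counts and medians are no independent support.

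**Figure D1:**
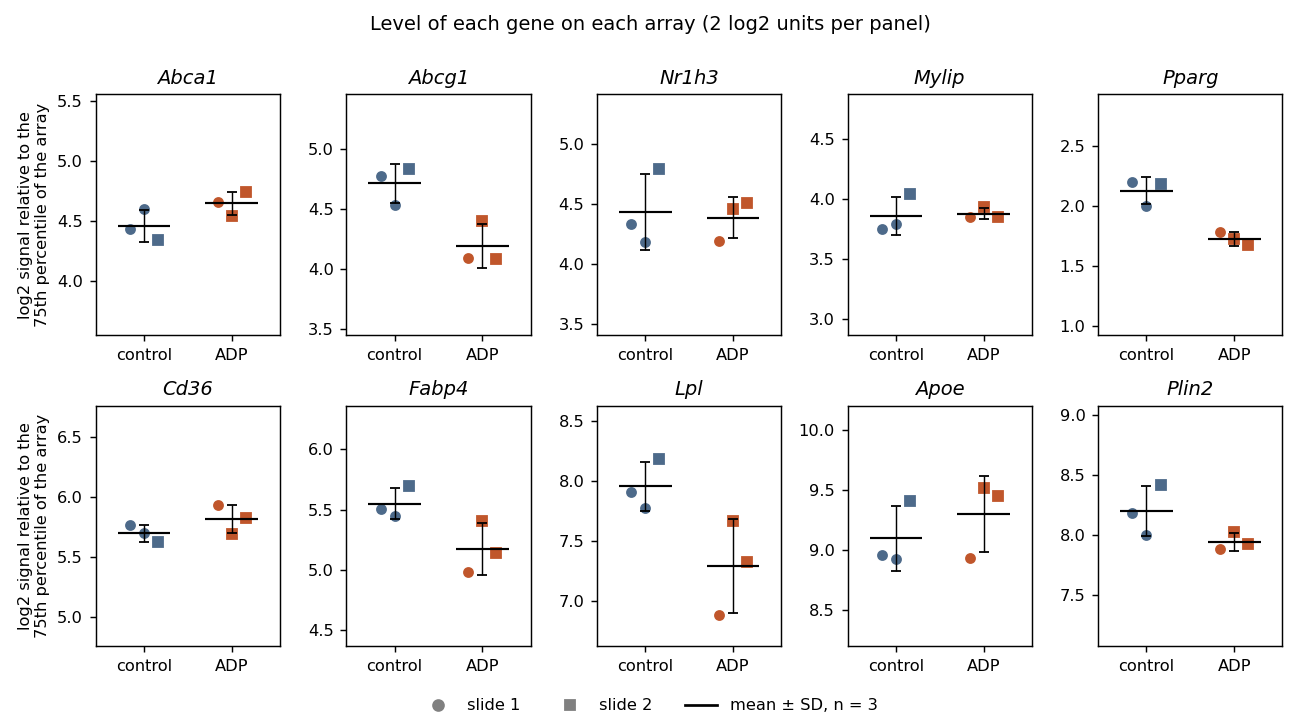
Level of each of the 10 genes (log2 signal relative to the array's 75th percentile, 2 log2 units a panel) on the 3 control and 3 ADP arrays, with circles for slide 1, squares for slide 2, and lines for mean ± SD. Abcg1, Pparg, Fabp4 and Lpl have all 3 ADP arrays below all 3 controls, and the groups of the other 6 genes overlap.

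The receptor genes come first. Pparg, whose product drives genes of fatty acid uptake and storage, read 2.20, 2.00 and 2.18 in controls 1 to 3 and 1.78, 1.72 and 1.67 in ADP 1 to 3. Every ADP array lay below the lowest control. The difference was -0.40 ± 0.11 (SE, n = 3 a group; limma adjusted p = 0.268), or 1.32-fold lower. It was -0.32 within slide 1 and -0.49 within slide 2. Its probe, at chr6:115440213-115440272, was spotted 10 times, and the spots of 1 array varied by 1.61% to 3.55% (CV).

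Nr1h3, whose product senses oxysterols and drives cholesterol efflux genes, read 4.33, 4.18 and 4.79 in controls and 4.19, 4.46 and 4.51 with ADP. The groups overlapped, and the highest array was a control on slide 2. The difference was -0.05 ± 0.19 (SE; limma adjusted p = 0.937), with a 95% interval from -0.49 to 0.40, and it was 0.13 without control 3. Its 2 probes lay next to each other on chromosome 2, and the dimmer one gave -0.03 ± 0.17 (SE).

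The LXR targets stood on both sides of 0. Abcg1, a transporter that passes cholesterol to HDL, read 4.78, 4.53 and 4.84 in controls and 4.09, 4.40 and 4.08 with ADP. All ADP arrays lay below all controls, ADP 2 nearest to them. The difference was -0.52 ± 0.14 (SE, n = 3 a group; limma adjusted p = 0.273), or 1.44-fold lower, and it was -0.56 within slide 1 and -0.59 within slide 2.

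Abca1, the transporter that loads cholesterol onto lipid-poor apolipoprotein A-I, read 4.43, 4.60 and 4.34 in controls and 4.66, 4.54 and 4.74 with ADP. ADP 1 and 3 lay above all controls and ADP 2 among them. The difference was 0.19 ± 0.12 (SE; limma adjusted p = 0.591), with a 95% interval from -0.09 to 0.47, and it was 0.14 and 0.30 within slides 1 and 2. The 2 transporters thus stood at -0.52 and 0.19; whether they differ from each other was not tested.

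Apoe, the apolipoprotein that macrophages secrete with cholesterol, read 8.96, 8.93 and 9.41 in controls and 8.94, 9.52 and 9.45 with ADP. Its levels followed the slide: the 3 arrays of slide 1 lay between 8.93 and 8.96 and the 3 of slide 2 between 9.41 and 9.52. The difference of 0.20 ± 0.21 (SE; limma adjusted p = 0.754) was -0.01 within slide 1 and 0.07 within slide 2, and 0.03 with the slide as a block (95% interval -0.15 to 0.22). Without 1 array it ranged from 0.093 without ADP 2 to 0.38 without ADP 1. The 10 spots of 1 array varied by 2.16% to 8.62% (CV).

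Mylip, a ubiquitin ligase also called IDOL that limits lipoprotein uptake, read 3.75, 3.79 and 4.04 in controls and 3.85, 3.93 and 3.85 with ADP. The ADP arrays lay inside the range of the controls. The difference was 0.01 ± 0.12 (SE; limma adjusted p = 0.971), with a 95% interval from -0.27 to 0.30, and its sign turned between slides, at 0.08 and -0.16. The dim 2nd probe gave -0.17 ± 0.33 (SE).

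**Figure D2:**
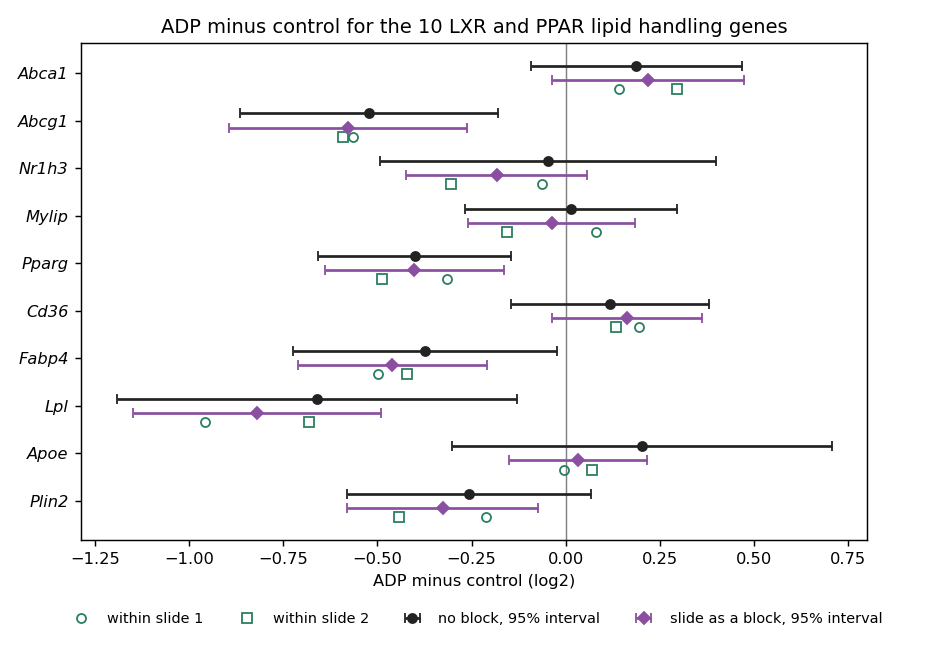
Difference between ADP and control (log2) for the 10 genes, with the 95% interval of the fit without a block (black) and with the slide as a block (purple), and the differences within slide 1 (open circles) and slide 2 (open squares). Abcg1, Pparg, Fabp4 and Lpl lie below 0 with both intervals, and the interval of Plin2 leaves 0 with the slide block.

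Of the PPAR targets, Lpl, the secreted lipase that frees fatty acids from lipoprotein triglyceride, had the largest difference of the 10 genes. It read 7.91, 7.77 and 8.18 in controls and 6.88, 7.67 and 7.33 with ADP. All ADP arrays lay below all controls, with ADP 2 closest to them and ADP 1 farthest. The difference was -0.66 ± 0.22 (SE, n = 3 a group; limma adjusted p = 0.312), or 1.58-fold lower. Of all features, 5.01% had a larger difference in either direction and 7.06% an equal or smaller limma p. The rank by difference is that of a gene picked as the largest of the 10. Within slides 1 and 2 the difference was -0.96 and -0.68, and without ADP 1 it was -0.46.

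The 2nd Lpl probe, A_52_P257812, starts at base 71425050 of chromosome 8 and the brighter one at 71430267. It read 6.49, 6.29 and 6.49 in controls and 5.38, 6.05 and 5.62 with ADP. Its order of arrays within the ADP group was that of the brighter probe. The difference was -0.74 ± 0.19 (SE, n = 3 a group; limma on each probe, adjusted p = 0.265), with -1.01 and -0.65 within slides 1 and 2.

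**Figure D3:**
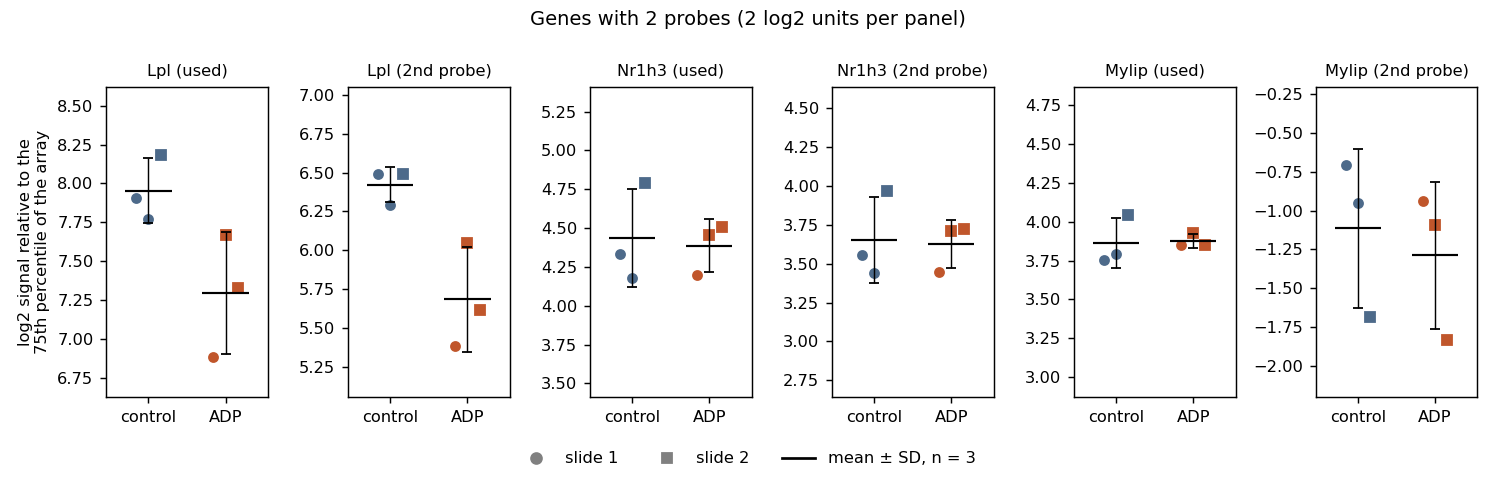
Levels (log2 signal relative to the array's 75th percentile) of both probes of Lpl, Nr1h3 and Mylip on each array, with circles for slide 1, squares for slide 2 and lines for mean ± SD (n = 3). Both Lpl probes have the 3 ADP arrays below the 3 controls, while both probes of Nr1h3 and of Mylip overlap between the groups.

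Fabp4, the cytosolic carrier that takes fatty acids to the nucleus and to droplets, read 5.50, 5.44 and 5.70 in controls and 4.98, 5.41 and 5.14 with ADP. The groups did not overlap, but ADP 2 lay close under control 2. The difference was -0.37 ± 0.15 (SE, n = 3 a group; limma adjusted p = 0.367), or 1.30-fold lower, with -0.50 and -0.42 within slides 1 and 2. Of the fits that left out 1 array, the one without ADP 2 gave it an unadjusted p under 0.05 and the others did not.

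Plin2, which coats lipid droplets, read 8.19, 8.01 and 8.42 in controls and 7.88, 8.03 and 7.93 with ADP. Control 2 lay under ADP 2, so the groups overlapped. The difference was -0.26 ± 0.13 (SE; limma adjusted p = 0.508), with -0.21 and -0.44 within slides 1 and 2, and -0.15 without control 3.

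Cd36, the scavenger receptor that takes up oxidised LDL and fatty acids, read 5.77, 5.70 and 5.62 in controls and 5.93, 5.69 and 5.82 with ADP. ADP 1 and 3 lay above all controls. The difference was 0.12 ± 0.11 (SE; limma adjusted p = 0.733), with a 95% interval from -0.15 to 0.38, and 0.19 and 0.13 within slides 1 and 2. It was 0.059 without ADP 1 and 0.18 without ADP 2.

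With the slide as a block, the differences of the lower genes were -0.82 ± 0.13 for Lpl, -0.58 ± 0.13 for Abcg1, -0.46 ± 0.10 for Fabp4, -0.40 ± 0.09 for Pparg and -0.33 ± 0.10 for Plin2 (SE). Their limma adjusted p-values were 0.0734, 0.0801, 0.0801, 0.0869 and 0.132, so none passed 0.05, as none of all features did (0%). When the variances were also trended and made robust, these 5 of the 10 genes passed, all lower with ADP, at limma adjusted p-values of 0.0210 to 0.0353. That fit called 5.38% of all features lower and 4.52% higher. Abca1 and Cd36 were 0.22 and 0.16 higher with the slide block and did not pass there, at adjusted p-values of 0.152 and 0.150. The call thus rests on the combination of slide block and variance model, since either alone called none of all features.

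RNA of other cells can also give these signals, and in bulk RNA fewer cells of a type and less RNA per cell cannot be told apart. Fabp4, Lpl, Pparg and Plin2 are also genes of fat cells. Of 6 adipocyte markers, Adipoq, Plin1 and Lep were not well above background on any array and none of the 6 was so on all arrays. Their summed linear signal was 0.0889 to 0.123 times the 75th percentile in controls and 0.186 to 0.316 times with ADP. With ADP the largest part of the sum was Retn, which was well above background on 5 arrays and read 1.81 higher. Cfd added to it on ADP 1, the 1 array where it was well above background. Adipoq, Plin1 and Lep differed by -0.045, -0.0057 and 0.12, all in dim signals. Whether fat cells gave part of the signals was not tested. Stromal markers were well above background on all arrays for 5 of 7 genes, Lum being so on none, and summed to 12.6 to 14.0 in controls and 13.4 to 14.6 with ADP. Col1a2, the largest part of that sum, Col1a1 and Col3a1 differed by 0.04, 0.001 and 0.07. Dcn and Cxcl12 read 0.27 and 0.32 higher, and the dimmer Pdgfra and Lum 0.31 and 0.21. The part of stromal cells was not tested. Neutrophil markers summed to 22.5 to 24.4 in controls and 26.1 to 31.7 with ADP, mostly S100a8, which read 0.32 higher. Dendritic cell markers summed to 36.7 to 140 and 36.6 to 159, mostly Siglech, which followed the slide. Lymphocyte markers summed to 6.39 to 6.82 and 6.05 to 6.97, and erythroid markers to 0.0358 to 0.0677 and 0.0433 to 0.0618. The part of these cells was not tested either. Among the macrophage markers, Mertk, an efferocytosis receptor, read lower with ADP by 0.61 on the log2 scale. Cd14, the endotoxin co-receptor, read 0.79 higher. Itgam and Adgre1 differed by -0.14 and -0.05, and Lyz2, Cd68, Fcgr1 and Csf1r by 0.24, 0.32, 0.37 and 0.40. Lyz2, Cd68, Fcgr1 and Csf1r followed the slide, with Csf1r at 8.11 to 8.30 on slide 1 and 8.96 to 9.17 on slide 2.

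Other genes of the pathways were taken from 7 lists, which also hold the 10 genes. The lists too were chosen with earlier results of these data known, so their counts and medians describe these arrays only. Of the 71 further genes, 65 were tested, and the others were on the array but did not pass the filter on dim probes. In the fit without a block, 0 passed the adjusted threshold, and an unadjusted p under 0.05 was found for 7 of the 65 with a higher and 6 with a lower reading under ADP, beside 6.55% and 6.18% of all features; the list counts that follow are read against the same shares. Their median difference was -0.05. The groups did not overlap for 10 genes with ADP above and 13 with ADP below, beside 9.67% and 9.72% of all features. With slide block and trended, robust variances, 8 were higher and 10 lower at an adjusted p under 0.05, beside 4.52% and 5.38%. Each of these counts of lower genes includes Pdk4, which passed the filter on dim probes through the controls alone.

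**Figure D4:**
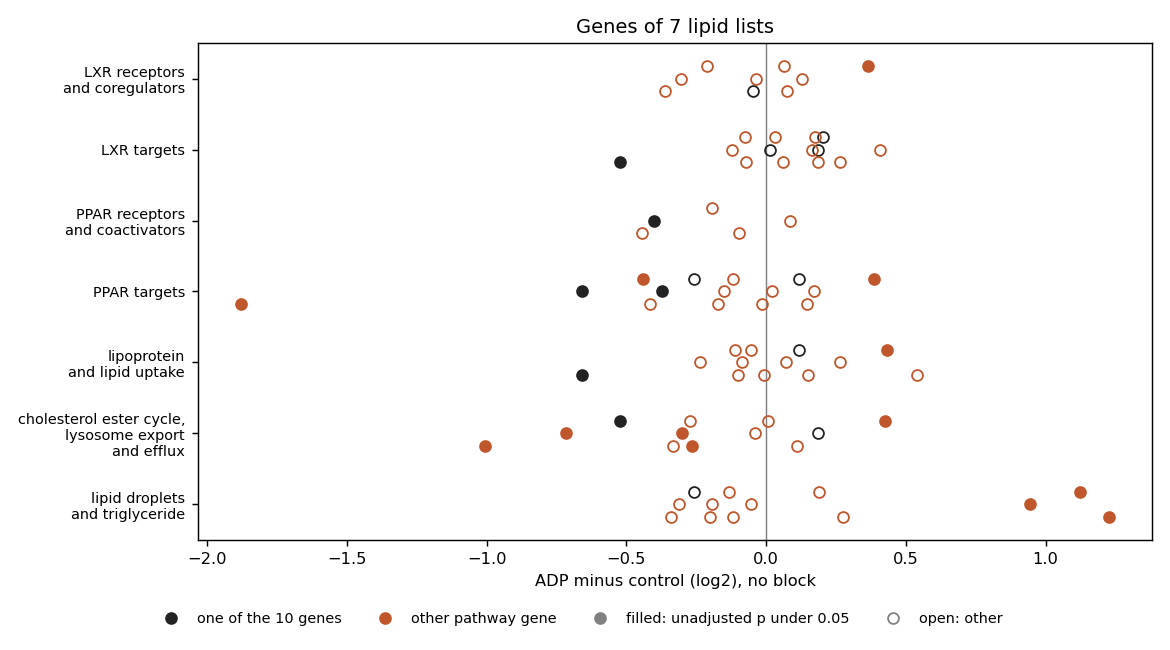
Difference between ADP and control (log2, fit without a block) of each tested gene of the 7 lists, with the 10 genes in black and the others in orange, filled where the unadjusted p was under 0.05. Dgat1, Dgat2 and Hilpda lie at the right, and Pdk4 and Cyp27a1 at the left, where the point of Pdk4 is the measured difference of a probe not well above background with ADP.

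Among receptors and coregulators of LXR, 1 of 8 further genes had an unadjusted p under 0.05. That was Ep300, a histone acetyltransferase that serves many receptors, which read 0.37 ± 0.09 higher (SE; limma adjusted p = 0.262) with the groups apart. Ncoa2, a coactivator, differed by -0.21 ± 0.10, and Rxra, the common partner of LXR and PPAR, by -0.36 ± 0.18 (SE). Rxra was at -0.18 as the mean of its probes. Nr1h2, which encodes LXR beta, differed by 0.06 ± 0.12. Of the PPAR receptors and coactivators, 0 of 4 had a p under 0.05: Ppargc1b was at -0.44 ± 0.44, well above background on 2 of the 3 ADP arrays, Med1 at -0.19 ± 0.20, and Ppard, which encodes PPAR delta, at 0.08 ± 0.13 (SE). Ppargc1b moved to -0.063 without ADP 1, -0.085 without control 3, -0.77 without ADP 2 and -0.81 with the slide block.

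None of the 10 further LXR targets had an unadjusted p under 0.05, and their median difference was 0.11. Arl4c, a small GTPase, was at 0.41 ± 0.20 (0.61 without control 3) and the desaturase gene Scd2 at 0.19 ± 0.11 (SE). Srebf1, the LXR target that drives fatty acid synthesis, was at -0.07 ± 0.13. Abcg1 was thus the LXR target of the list with the smallest p and stood at the low end. The ADP arrays lay above all controls for 2 of the 10 further genes, Scd2 among them, and below all controls for 0. The shares over all features were 9.67% and 9.72%.

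Of 11 further PPAR targets, 1 read higher and 2 read lower with an unadjusted p under 0.05. The 2 lower ones were Cpt1a and Pdk4, and Pdk4 passed the filter on dim probes through the controls alone. Cpt1a, which lets long-chain fatty acids into mitochondria, read 4.76, 4.55 and 4.92 in controls and 4.44, 4.20 and 4.26 with ADP, a difference of -0.44 ± 0.14 (SE; limma adjusted p = 0.294). As the mean of its probes it was -0.32 (limma unadjusted p = 0.0527), and within slides 1 and 2 it was -0.21 and -0.69. Pdk4, a kinase that spares glucose, was well above background on all controls but on none of the ADP arrays, which makes it at least 1.31-fold lower. Its p rests on dim ADP signals and is not read as support. Klf4, a transcription factor, read 0.39 ± 0.16 higher (adjusted p = 0.381), and 0.24 higher without control 3. Fabp5, the other fatty acid carrier of macrophages, differed by 0.02 ± 0.12 (SE), with a 95% interval from -0.27 to 0.31, beside -0.37 for Fabp4.

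In lipoprotein and lipid uptake, 1 of 11 further genes was higher and 0 lower at that level. It was Slc27a4, a fatty acid transport protein, at 0.43 ± 0.13 (SE; limma adjusted p = 0.298), while its relative Slc27a1 was at -0.24 ± 0.11. Olr1, a receptor for oxidised LDL, was at 0.54 ± 0.28, at 0.76 with the slide block and at 0.25 without control 3.

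The genes that break down, oxidise and re-esterify cholesterol had the lowest median of the lists, -0.27, with 4 of 10 further genes lower and 1 higher at an unadjusted p under 0.05, beside 6.18% and 6.55% of all features. Cyp27a1, the mitochondrial enzyme that makes the LXR ligand 27-hydroxycholesterol, read -1.33, -1.34 and -1.38 in controls and -2.12, -2.12 and -2.83 with ADP. All ADP arrays lay far below the narrow range of the controls, at a difference of -1.01 ± 0.21 (SE, n = 3 a group; limma adjusted p = 0.260), or 2.01-fold lower. The size depends on the background correction, as the difference was -0.68 with normexp.

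Ch25h, which makes 25-hydroxycholesterol, read -0.60, -0.51 and -0.10 in controls and -1.26, -0.67 and -1.44 with ADP, a difference of -0.72 ± 0.24 (SE; limma adjusted p = 0.309). Lipa, the lysosomal acid lipase that frees cholesterol from lipoprotein esters, was at -0.30 ± 0.10 (SE; adjusted p = 0.322). All 3 passed with slide block and trended, robust variances, at limma adjusted p-values of 0.0286, 0.0420 and 0.0414. They were named for their small p in these same arrays, so this adds no independent support.

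In lipid droplets and triglyceride synthesis, an unadjusted p under 0.05 was found for 3 of 12 further genes, all 3 of which read higher with ADP. Dgat1, which adds the last fatty acid to triglyceride, read 1.76, 2.06 and 1.39 in controls and 2.97, 2.57 and 3.05 with ADP, a difference of 1.12 ± 0.21 (SE; limma adjusted p = 0.260), or 2.18-fold. Dgat2, an enzyme of the same step, read -0.26, -0.02 and -1.07 in controls and 0.97, 0.34 and 1.01 with ADP, 1.23 ± 0.32 higher (adjusted p = 0.261). Hilpda, an inhibitor of the droplet lipase ATGL, read 3.78, 4.09 and 2.93 in controls and 4.83, 4.31 and 4.48 with ADP, 0.95 ± 0.31 higher (adjusted p = 0.306), and 0.61 higher without control 3. For all 3, every ADP array lay above every control, and each passed with slide block and trended, robust variances at 0.0210. They were named for their small p in these same arrays, so neither adds independent support. Of the 12 further genes, 4 had every ADP array above and 4 below every control, beside 9.67% and 9.72% of all features. The fit with slide block and those variances called 4 higher and 1 lower, beside 4.52% and 5.38%. Plin2, the coat protein of the same droplets, was at -0.26 beside Dgat1, Dgat2 and Hilpda.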

How the data were processed

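Spot intensities were deposited as read by Agilent Feature Extraction 10.7.1.1 (per the file headers and the submitters' processing notes), background-subtracted and not scaled between arrays; the value table holds the same intensities within 0.001 log2 for 100% of probes. Groups follow the sample titles. Here, control spots were dropped, and outlier spots too unless all spots of a probe on that array were flagged. A flagged probe without further spots was thus kept. Log2 spots of a probe were averaged and set against the array's 75th percentile. Probes well above background on all 3 arrays of a group were kept (26587), and a gene took its probe of highest mean. The test was limma 3.58.1 (R 4.3.3), two-sided, no block, threshold 0.05, tested on simulated data; its p-values measure the spread between these samples. Symbols were updated through RefSeq (GRCm38.p6), which added 0 probes to the 10 genes. The 10 genes, lists and alternatives were chosen with earlier results of these data known. Named are the 10 genes with all probes, the 3 further genes of smallest p per list, and Nr1h2, Rxra, Ppard, Srebf1 and Fabp5; other names were picked after seeing their values, and a gene the rule takes may not be reported here. An "at least" fold compares the bright group's mean with, per array, the dim probe's signal or the lowest one well above background, whichever is higher. Alternatives covered background, scaling, filters, probe rule, variance model, slide, replicate number and leaving out arrays. Markers Ly6g and Hbb-b1 matched no name.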

Additional observations from a re-analysis of the deposited data

How the results depend on the processing

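Of the 10 genes, 7 kept their direction under all 20 alternatives, and so did 19 of 24 other genes followed, with Pdk4 and Ppargc1b measured in 19. The alternatives reuse the same 6 arrays, and the variance model and the replicate block cannot change a difference. Most of the 24 were named for a small p in these arrays. A kept direction is thus no independent support. No feature passed under normexp, quantile, median or no scaling, other filters and probe rules, trended and robust variances alone, the slide block alone, or without any 1 array (0 to 0). Slide block with trended and robust variances called 1939. The median of the 10 genes was -0.26 with the slide block, with or without those variances, -0.36 within slide 2, and -0.27 to -0.035 without 1 array, lowest without control 2 and highest without control 3. Same-numbered samples correlated in their deviations at 0.42, -0.40 and 0.43. These values followed the slide, as control 2 and ADP 2 lay on different slides. Control 2 with ADP 1 and control 3 with ADP 2, each on 1 slide, gave 0.45 and 0.47, and pairs across slides -0.60 to -0.27. The correlations thus cannot show whether equal numbers share a donor. The labels name no pairs, so the numbers were not taken as pairs. The replicate block called 0 features, and 3 of the 10 genes read lower at an unadjusted p under 0.05, beside 5.98% of all features. At that level the 10 genes gave 3 lower with normexp, median scaling or no filter, beside 5.4%, 5.19% and 3.44% of all features, and 5 with quantile normalization, beside 6.91%. The sign turned as follows, with causes not tested. Nr1h3 was 0.030 on the unscaled table and -0.17 to 0.13 without 1 array. Mylip was -0.080 as the mean of its probes, -0.012 with median scaling, -0.037 with the slide block, -0.16 within slide 2 and -0.040 to 0.10 without 1 array. Apoe was -0.0054 within slide 1. Med1 was 0.066 as the mean of its probes and 0.010 within slide 1. Nr1h2 was -0.047 and Ppard -0.039 within slide 2. Srebf1 was 0.0060 with the slide block, 0.0061 on the unscaled table, 0.041 within slide 2 and -0.16 to 0.0022 without 1 array. Fabp5 was -0.0058 with median scaling, -0.15 with quantile normalization, -0.052 with the slide block, -0.035 within slide 1, -0.069 within slide 2 and -0.025 to 0.10 without 1 array. Pdk4, dim with ADP, was -0.27 with normexp.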
